A study of Mus musculus with 10 samples.

Results

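Collagen genes of the mouse, 44 in number, were described in RNA sequencing libraries of bone marrow and of cultured spleen cells. They are all genes of the deposited table, 44 of 46959, whose symbol is Col, a number, the letter a and a number, a rule that reads the symbol alone. They cover 11 fibrillar chains, 6 basement membrane chains of type IV, 6 beaded filament chains of type VI, 9 fibril-associated chains, 4 transmembrane chains, 3 short-chain network chains, 2 multiplexins, 1 anchoring fibril chain and 2 others. Of 10 libraries in 5 groups of 2, 6 came from cells labelled femoral B cells that were lysed without culture. These came from mice with the strain label C57BL6, and form the groups 2KO, deltaEmu and RAG2_deficient. What 2KO stands for is not written in the labels. The design text lists mice lacking Eµ and the 3′ regulatory region, which are enhancers of the immunoglobulin heavy chain locus, and mice lacking RAG2, a recombinase of developing lymphocytes. A femoral group of wild-type mice was not analysed here. The other 4 libraries were spleen cells without CD43, with the strain label 129, grown for 48 h with lipopolysaccharide (LPS, 5 µg/ml) and interleukin 4 (IL4, 20 ng/ml), in the groups LPS_IL4 and LPS_IL4_SAHA, where SAHA is vorinostat, an inhibitor of histone deacetylases. The growth protocol names KOKI and BLACK-6 mice for these cells, and the design text calls them wild type. All mice were 8 to 10 weeks old. The design text speaks of pooled RNA, so p-values measure the spread between such pools only.

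Collagens are secreted or membrane proteins built from 3 chains wound into a triple helix. Fibrillar chains form the tensile fibrils of bone, cartilage and soft tissue, type IV chains form the sheet under endothelium and epithelium, and the short-chain and beaded forms make finer networks. In marrow, collagen RNA is known from osteoblasts, reticular stromal cells, endothelium and growth plate cartilage, and B cells are not known as a main source.

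The table numbers its columns, and the labels hold 2 numberings of the samples. Columns were read by the index that ends each description, and the titles would assign 8 of the 10 differently. Read this way, Rag1, a recombinase gene of immature lymphocytes, ranged from 146 to 979 CPM in the 6 femoral libraries, against 0 to 0.0394 CPM in the splenic ones. CPM are counts scaled to a common library total after TMM scaling, a correction for unequal RNA composition. Femoral and splenic libraries were scaled apart, so their CPM are not on exactly the same scale. With all libraries scaled together, splenic Col11a2 ran from 6.85 to 9.40 CPM, against 6.46 to 9.04 CPM when scaled apart. Fold bounds between tissues use the joint scale. Library totals were 17710154 to 25544275 counts. The Y-linked gene Ddx3y lay at 45.4 to 70.2 CPM in 2KO and deltaEmu and at 0.249 and 0 CPM in RAG2_deficient, so sex and genotype cannot be told apart in comparisons with that group.

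Upstream sequence is shown for 5 members whose levels the results below turn on: 2 abundant cartilage-type fibrillar chains (Col11a1 and Col11a2), the fibrillar Col3a1, the hypertrophic cartilage chain Col10a1, and Col6a5, which was called higher in 2KO. Each is the 250 bases before the RefSeq gene start (GRCm38.p6), 5′ to 3′ on the gene's strand, with no exon base. Capitals mark the letters of the CCAAT box, of the TATA box (searched as TATAAA) or of the GC box (GGGCGG), on either strand. The windows lie at chr3:114030290-114030539 (plus strand, Col11a1), chr17:34038888-34039137 (plus, Col11a2), chr1:45311288-45311537 (plus, Col3a1), chr10:34389731-34389980 (plus, Col10a1) and chr9:105960644-105960893 (minus, Col6a5).
Col11a1: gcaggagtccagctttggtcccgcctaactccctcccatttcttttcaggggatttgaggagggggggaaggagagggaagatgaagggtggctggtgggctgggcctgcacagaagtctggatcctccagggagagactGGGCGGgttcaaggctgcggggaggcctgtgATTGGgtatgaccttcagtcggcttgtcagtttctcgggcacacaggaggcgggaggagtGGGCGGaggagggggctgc
Col11a2: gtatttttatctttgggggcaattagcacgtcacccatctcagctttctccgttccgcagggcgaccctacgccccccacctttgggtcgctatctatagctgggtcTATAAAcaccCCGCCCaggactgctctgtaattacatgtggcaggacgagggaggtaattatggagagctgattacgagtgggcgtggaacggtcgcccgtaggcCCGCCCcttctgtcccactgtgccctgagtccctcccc
Col3a1: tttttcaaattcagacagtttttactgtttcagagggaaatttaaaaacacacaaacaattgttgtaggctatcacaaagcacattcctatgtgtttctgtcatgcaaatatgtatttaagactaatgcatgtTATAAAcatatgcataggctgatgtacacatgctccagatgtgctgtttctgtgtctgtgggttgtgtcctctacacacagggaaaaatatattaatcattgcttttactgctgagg
Col10a1: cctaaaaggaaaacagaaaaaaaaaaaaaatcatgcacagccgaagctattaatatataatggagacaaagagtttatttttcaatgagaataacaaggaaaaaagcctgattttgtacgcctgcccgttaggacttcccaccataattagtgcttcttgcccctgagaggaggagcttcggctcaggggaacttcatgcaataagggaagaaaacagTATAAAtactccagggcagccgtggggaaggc
Col6a5: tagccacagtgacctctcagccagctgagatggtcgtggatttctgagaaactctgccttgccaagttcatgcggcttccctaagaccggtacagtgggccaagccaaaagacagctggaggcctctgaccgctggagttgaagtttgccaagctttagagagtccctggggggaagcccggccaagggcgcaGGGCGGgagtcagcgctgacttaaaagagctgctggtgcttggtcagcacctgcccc
Of the 44 members, 35 had an entry in the RefSeq table, with 38 windows. CCAAT, on either strand, was in 34.2% of these 38 and in 33.8% of all 32851 windows of the same length. TATAAA was in 13.2% against 12.4%, and GGGCGG in 57.9% against 32.7%. These are matches of letters and were not tested.

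Collagen RNA was abundant in the femoral libraries and was highest in RAG2_deficient. The 44 members took 0.185% and 0.135% of all counts in 2KO, 0.250% and 0.250% in deltaEmu, and 0.786% and 0.855% in RAG2_deficient. In the splenic libraries they took 0.00122% to 0.00192%. Summed over the members, levels were 1837 and 1296 CPM in 2KO, 2452 and 2630.2 CPM in deltaEmu and 8774 and 7889 CPM in RAG2_deficient, so the 3 groups did not overlap. Type I collagen, Col1a1 and Col1a2 together, made up 79.9% to 85.4% of collagen counts in each femoral library. In a bulk library, fewer cells of a type and less RNA per cell cannot be told apart.

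**Figure D1:**
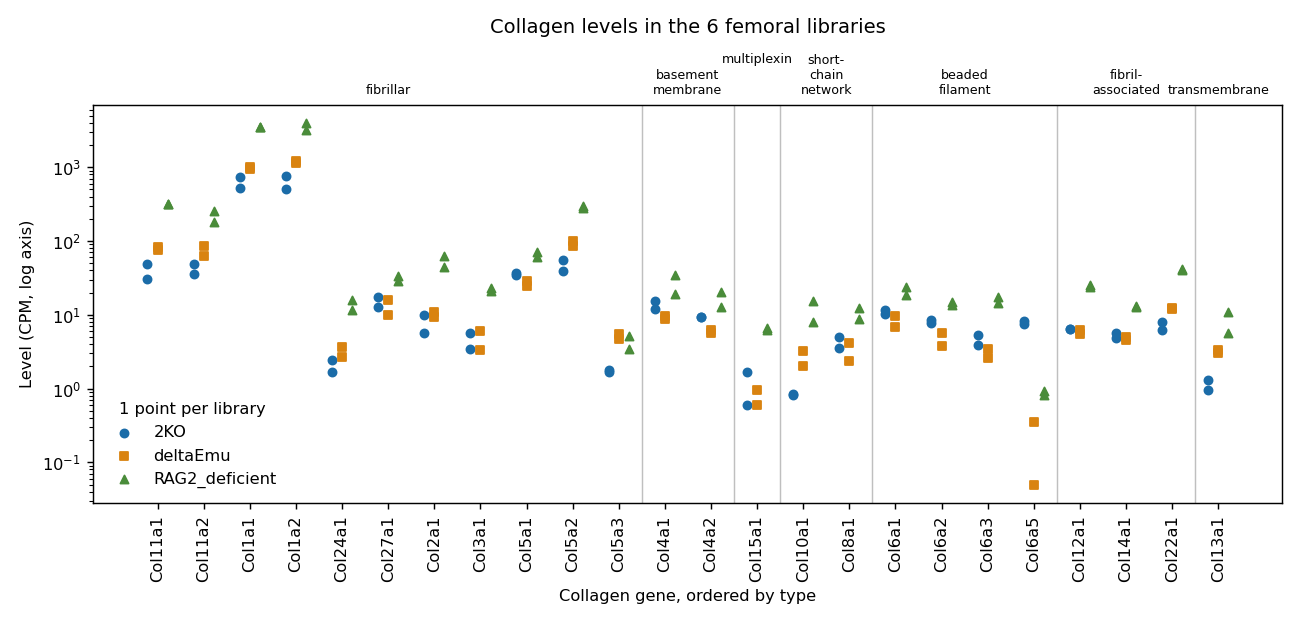
Levels of the 24 collagen genes with a mean of at least 5 CPM in a femoral group, by library (log axis in CPM, 1 point per library). RAG2_deficient lies highest for most genes; Col6a5 is highest in 2KO and Col5a3 lowest in 2KO.

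By type, fibrillar sums were 1738 and 1200.5 CPM in 2KO, 2374 and 2539.9 CPM in deltaEmu, and 8513 and 7684 CPM in RAG2_deficient. Type IV sums were 22.7 and 25.5 CPM, 15.9 and 17.4 CPM, and 56.4 and 33.1 CPM in the same order of groups. Beaded filament sums were 34.6 and 29.96 CPM, 13.3 and 19.5 CPM, and 58.0 and 48.1 CPM. The order of 2KO and deltaEmu therefore differed by type: fibrillar sums were lower in 2KO, whereas type IV and beaded filament sums were higher there, with no overlap in each case. A large part of the beaded filament difference came from Col6a5, at 8.26 and 7.40 CPM in 2KO against 0.04999 and 0.356 CPM in deltaEmu. Col6a1, Col6a2 and Col6a3 were each also higher in 2KO, without overlap. Fibril-associated chains summed to 27.9 and 26.2 CPM, 30.6 and 31.7 CPM, and 93.2 and 87.4 CPM. Short-chain network sums were 4.65 and 6.11 CPM, 4.70 and 7.89 CPM, and 28.7 and 17.7 CPM, so 2KO and deltaEmu overlapped. Transmembrane sums were 4.70 and 3.72 CPM, 9.50 and 9.37 CPM, and 14.7 and 8.97 CPM, so deltaEmu and RAG2_deficient overlapped.

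In RAG2_deficient, fibrillar genes stood well above 2KO, and Col6a5 was the member called in the other direction. Between 2KO and RAG2_deficient, 17 of 36 members tested were lower in 2KO and 1, Col6a5, was higher (edgeR quasi-likelihood test, adjusted p under 0.05). Over all genes tested, 3.05% were lower and 1.26% higher. The lower members were 9 of 11 fibrillar, 3 of 8 fibril-associated, 2 of 4 transmembrane, 1 of 4 beaded filament, 1 of 3 short-chain and 1 of 2 multiplexin genes, with none of 3 type IV genes. Groups did not overlap, with 2KO lower, for 30 of the 36 (23.2% of all genes), and with 2KO higher for 4 (23.4%). The median log2 fold change was -1.30 over the members tested and -0.00 over all genes, and -2.46 over the fibrillar genes. Without 2KO replicate 3 the count fell to 8 (in a fit that called 0.881% of all genes, against 4.31% with it), and Col1a1, Col1a2, Col3a1, Col5a1, Col6a3, Col6a5, Col13a1, Col14a1, Col15a1 and Col25a1 were no longer called, although each kept its direction. Calls of Col5a1, Col14a1, Col15a1 and Col25a1 were also lost when other single libraries were left out.

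The filter on low counts removed 8 members, namely Col4a3, Col4a4, Col4a6, Col6a4, Col6a6, Col9a2, Col26a1 and Col28a1. Of the 36 that passed, 30 were above the filter's level of 0.533 CPM in both libraries of every femoral group. Col25a1, Col8a2, Col18a1, Col6a5, Col17a1 and Col9a1 were above it in some libraries only, so that a member such as Col25a1 was tested because of the group in which it was high.

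In deltaEmu, most fibrillar genes also stood below RAG2_deficient, and so did the main chains of types IV and VI. Of the 36 members tested, 21 were lower in deltaEmu and 1, Col17a1, was higher, where 5.39% of all genes were lower and 4.42% higher (edgeR, adjusted p under 0.05). The lower members were 10 of 11 fibrillar, 3 of 8 fibril-associated, 3 of 4 beaded filament, 2 of 3 type IV, 2 of 3 short-chain and 1 of 2 multiplexin genes, with none of 4 transmembrane genes. Groups did not overlap, with deltaEmu lower, for 28 members (26.7% of all genes), and with deltaEmu higher for 3 (25.8%). The median log2 fold change was -1.46 over the members tested and -0.01 over all genes. The count fell to 2, Col12a1 and Col22a1, without deltaEmu replicate 5, in a fit that called 1.49% of all genes against 9.81% with it. It fell to 7 without deltaEmu replicate 7 (1.84% of all genes), when Col2a1, Col3a1, Col5a1, Col6a2, Col6a3, Col12a1 and Col22a1 were called. Without RAG2_deficient replicate 2, Col27a1 was not called. Both comparisons use the same RAG2_deficient libraries, so their values stand side by side and do not support each other.

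**Figure D2:**
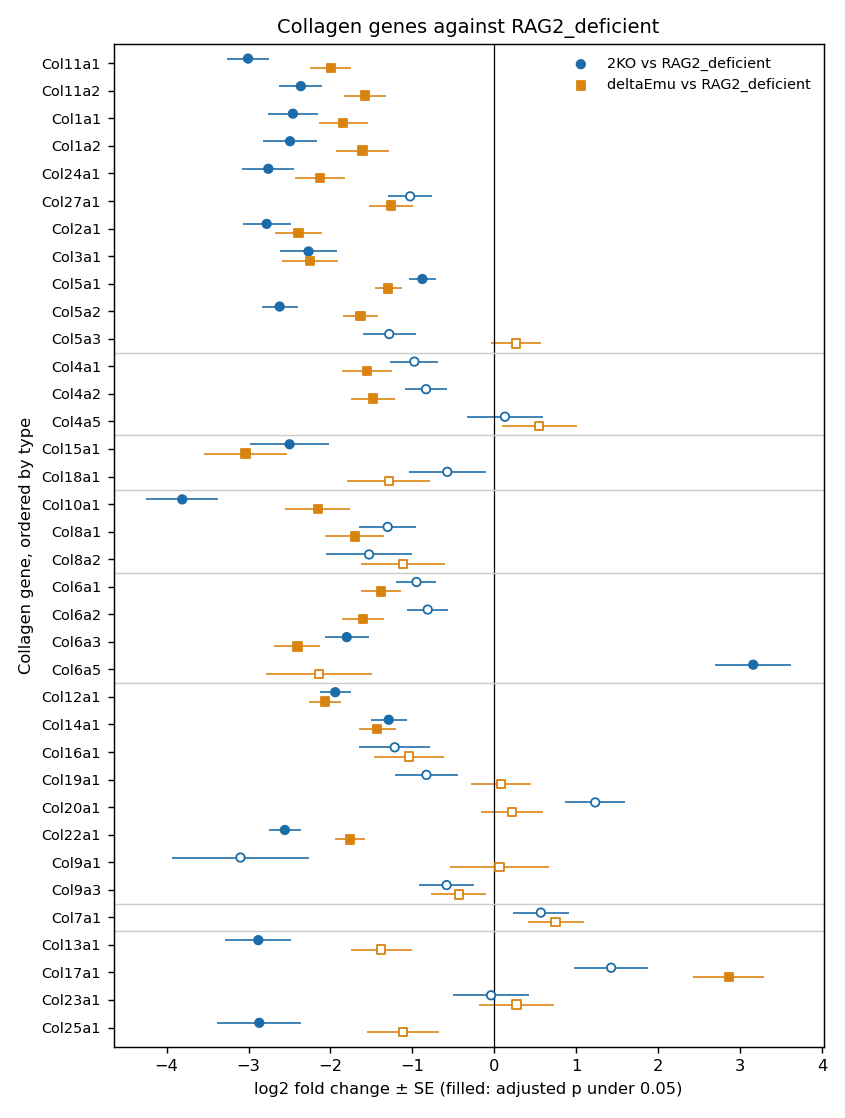
Log2 fold change ± SE of the 36 tested collagen genes against RAG2_deficient, for 2KO (circles) and deltaEmu (squares), ordered by type (filled: adjusted p under 0.05). Most lie left of 0; Col6a5 is right of 0 for 2KO and Col17a1 for deltaEmu.

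Between 2KO and deltaEmu few members were called, and the one with the largest change was Col6a5. Lower in 2KO were Col5a2 and Col5a3, 2 of 36 tested (1.91% of all genes), and higher was Col6a5 (1.79% of all genes). Groups did not overlap for 16 members with 2KO lower (29.5% of all genes) and for 10 with 2KO higher (27.9%). The median log2 fold change was -0.25 over the members, -0.01 over all genes, -0.63 over fibrillar, -1.47 over transmembrane, 0.58 over type IV and 0.70 over beaded filament genes. The calls of Col5a2 and Col5a3 were lost without 2KO replicate 1, 2KO replicate 3, deltaEmu replicate 5 or deltaEmu replicate 7, so that 1 call, Col6a5, was left in each case. Both calls were also lost in a fit without ribosomal RNA, mitochondrial and immunoglobulin genes. With RAG2_deficient replicate 1 or replicate 2 left out of the shared fit, 10 and 11 members were called, where 9.0% and 9.21% of all genes were called against 3.70% with both. A fit of these 4 libraries alone called 9.81% of all genes and 10 members, of which 9 were lower, among them Col1a2, Col10a1, Col11a1, Col11a2, Col13a1, Col17a1 and Col22a1.

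**Figure D3:**
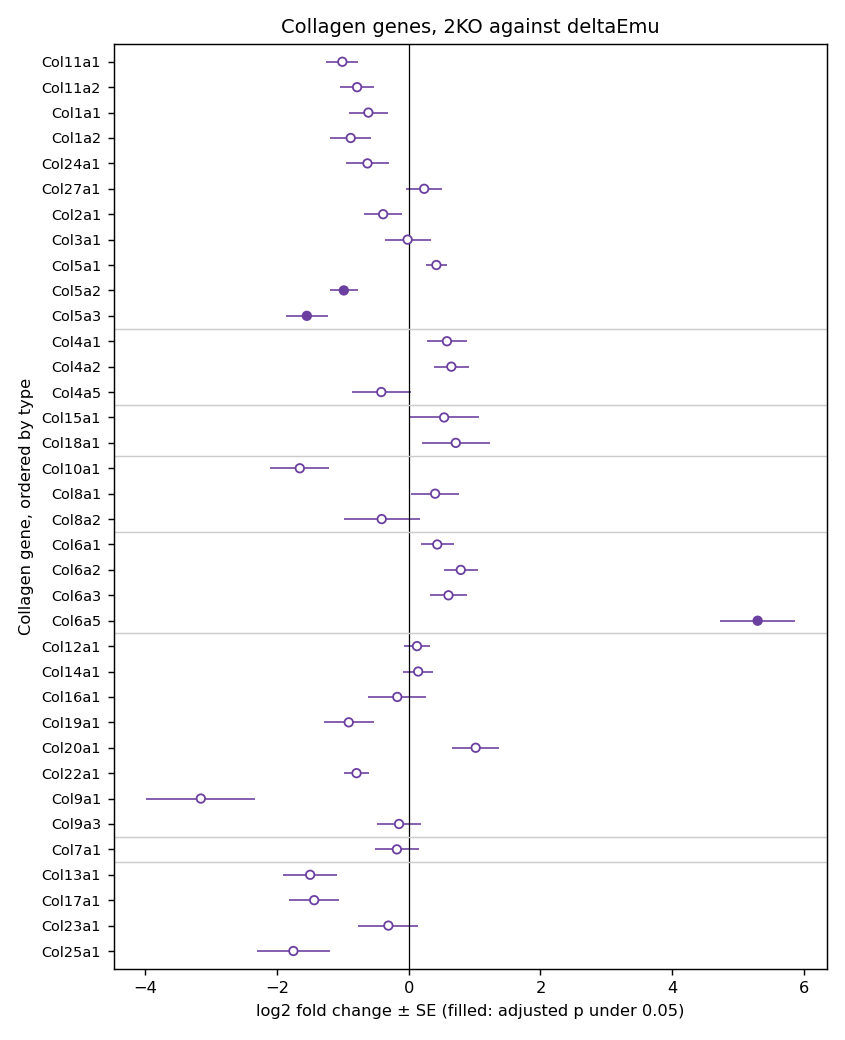
Log2 fold change ± SE of the 36 tested collagen genes in 2KO against deltaEmu, ordered by type (filled: adjusted p under 0.05). Most fibrillar and transmembrane genes lie left of 0, the type VI chains lie right of 0, and Col6a5 stands apart at 5.30.

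Type I collagen, the main protein of bone matrix, dominated the fibrillar group. Col1a1 (chr11:94936224-94953042, mm10), its alpha 1 chain, lay at 746 and 528 CPM in 2KO, 947 and 1003 CPM in deltaEmu, and 3507 and 3491 CPM in RAG2_deficient. It was 5.50-fold lower in 2KO than in RAG2_deficient (log2 -2.46 ± 0.31, adjusted p = 0.00691) and 3.59-fold lower in deltaEmu (-1.84 ± 0.30, adjusted p = 0.00996). Every RAG2_deficient library was above every other library, and 2KO lay below deltaEmu without a call (1.53-fold, adjusted p = 0.370). Col1a2 (chr6:4504814-4541544), the alpha 2 chain, lay at 765 and 508 CPM in 2KO, 1148 and 1199 CPM in deltaEmu, and 3933 and 3234 CPM in RAG2_deficient. Its folds were 5.63 and 3.05 against RAG2_deficient (adjusted p = 0.00909 and 0.0210), with the libraries in the same order of groups. Its call in either comparison was lost when only the 4 libraries compared were fitted. On a scale of CPM per kilobase of transcript, the level of Col1a1 was 1.56 to 2.04 times that of Col1a2 in the 6 femoral libraries. Type I protein holds more alpha 1 than alpha 2 chains.

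The minor fibrillar chains of types V and XI, which assemble with types I and II and limit fibril width, did not all move alike. Col11a1 lay at 49.3 and 30.3 CPM in 2KO, 75.9 and 84.3 CPM in deltaEmu, and 321 and 318 CPM in RAG2_deficient, 8.03-fold lower in 2KO and 3.99-fold lower in deltaEmu than in RAG2_deficient (adjusted p = 0.00136 and 0.00362). Col11a2 lay at 49.3 and 35.9 CPM in 2KO, 62.4 and 84.5 CPM in deltaEmu, and 254 and 184 CPM in RAG2_deficient, with folds of 5.14 and 2.98 (adjusted p = 0.00389 and 0.00976). Both type XI chains were separated in all 3 groups, lowest in 2KO. The type V chain Col5a2 lay at 54.6 and 38.7 CPM in 2KO, 85.9 and 99.1 CPM in deltaEmu, and 296 and 278 CPM in RAG2_deficient. It was 6.15-fold lower in 2KO and 3.10-fold lower in deltaEmu than in RAG2_deficient, and 1.98-fold lower in 2KO than in deltaEmu (log2 -0.99 ± 0.21, adjusted p = 0.0475). Col5a1, its usual partner chain, lay at 36.7 and 34.5 CPM in 2KO, 24.7 and 28.5 CPM in deltaEmu, and 70.6 and 60.2 CPM in RAG2_deficient. Here 2KO was above deltaEmu in both libraries, without a call (log2 0.42 ± 0.16, adjusted p = 0.269), and RAG2_deficient was 1.84-fold and 2.46-fold above them (adjusted p = 0.0303 and 0.00388). As a result, the level of Col5a2 per kilobase was 1.32 and 0.994 times that of Col5a1 in 2KO, 3.07 and 3.08 times in deltaEmu, and 3.70 and 4.09 times in RAG2_deficient. Col5a3, another type V chain, lay at 1.68 and 1.79 CPM in 2KO, 4.75 and 5.46 CPM in deltaEmu, and 5.10 and 3.40 CPM in RAG2_deficient. It was 2.93-fold lower in 2KO than in deltaEmu (log2 -1.55 ± 0.32, adjusted p = 0.0421), and deltaEmu and RAG2_deficient overlapped.

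Type II collagen, the main collagen of cartilage, was present at a low level. Col2a1 lay at 9.85 and 5.74 CPM in 2KO, 9.45 and 11.0 CPM in deltaEmu, and 61.9 and 45.0 CPM in RAG2_deficient, 6.86-fold lower in 2KO and 5.24-fold lower in deltaEmu than in RAG2_deficient (adjusted p = 0.00305 and 0.00322), and 2KO and deltaEmu overlapped. Col11a1 per kilobase was 2.36 to 3.79 times Col2a1 in the femoral libraries. Type III collagen, a partner of type I in soft tissue, was rare beside it: Col3a1 lay at 5.69 and 3.45 CPM in 2KO, 3.30 and 5.99 CPM in deltaEmu, and 22.9 and 21.0 CPM in RAG2_deficient, and Col1a1 per kilobase was 196 to 429 times higher. Col3a1 was 4.82-fold and 4.75-fold lower than in RAG2_deficient in 2KO and deltaEmu (adjusted p = 0.0151 and 0.00786). The 2KO and deltaEmu libraries overlapped for Col3a1.

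Of the most divergent fibrillar chains, Col24a1, a fibrillar collagen of bone, lay at 2.42 and 1.65 CPM in 2KO, 2.70 and 3.62 CPM in deltaEmu, and 11.8 and 15.8 CPM in RAG2_deficient. It was 6.77-fold lower in 2KO and 4.38-fold lower in deltaEmu than in RAG2_deficient (adjusted p = 0.00474 and 0.00626). The 3 groups were separated in the order 2KO, deltaEmu and RAG2_deficient. Col27a1, a fibrillar chain of cartilage, lay at 17.5 and 13.0 CPM in 2KO, 9.90 and 16.1 CPM in deltaEmu, and 28.4 and 33.7 CPM in RAG2_deficient. Its 2KO and deltaEmu libraries overlapped, and it was 2.396-fold lower in deltaEmu than in RAG2_deficient (adjusted p = 0.0271) and 2.04-fold lower in 2KO without a call (adjusted p = 0.0780).

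In the basement membrane group the common pair Col4a1 and Col4a2 carried nearly all RNA, and deltaEmu was lowest. The pair lies head to head on chromosome 8 (Col4a1 at chr8:11198423-11312826, minus strand, and Col4a2 at chr8:11312805-11449287, plus strand), with 22 bases shared by the 2 gene models. Col4a1 lay at 12.2 and 15.2 CPM in 2KO, 8.65 and 9.67 CPM in deltaEmu, and 34.9 and 19.03 CPM in RAG2_deficient. Col4a2 lay at 9.25 and 9.47 CPM in 2KO, 6.20 and 5.75 CPM in deltaEmu, and 20.6 and 12.8 CPM in RAG2_deficient. Both were lower in deltaEmu than in RAG2_deficient, 2.94-fold and 2.79-fold (adjusted p = 0.0187 and 0.0147). In 2KO they were 1.97-fold and 1.78-fold below RAG2_deficient and 1.49-fold and 1.56-fold above deltaEmu, without overlap of libraries and without a call (adjusted p = 0.112, 0.122, 0.418 and 0.296). Per kilobase, Col4a1 was 1.28 to 1.64 times Col4a2 in every femoral library. The chains of specialised membranes were scarce: Col4a5 stayed at 0.689 to 1.42 CPM with no call, Col4a6 at 0.124 to 0.534 CPM, Col4a4 had 1 count in all and Col4a3 none.

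Of the short-chain network collagens, Col10a1, the chain of hypertrophic cartilage, lay at 0.841 and 0.827 CPM in 2KO, 2.05 and 3.26 CPM in deltaEmu, and 15.6 and 7.99 CPM in RAG2_deficient. The 3 groups were separated, and 2KO was 14.0-fold and deltaEmu 4.45-fold below RAG2_deficient (log2 -3.81 ± 0.44 and -2.15 ± 0.40, adjusted p = 0.00480 and 0.0159). Between 2KO and deltaEmu it differed 3.15-fold without a call (adjusted p = 0.107). By level per kilobase it stood 11th of 44 in RAG2_deficient, 13th in deltaEmu and 25th in 2KO. It shares 18 exon bases with Nt5dc1 on the other strand. Col8a1, of the network under vascular endothelium, lay at 3.51 and 5.01 CPM in 2KO, 2.35 and 4.15 CPM in deltaEmu, and 12.4 and 8.72 CPM in RAG2_deficient. It was 3.25-fold lower in deltaEmu than in RAG2_deficient (adjusted p = 0.0258) and 2.47-fold lower in 2KO without a call (adjusted p = 0.0845). Its partner Col8a2 lay at 0.276 to 0.980 CPM and was not called.

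Multiplexins are basement membrane collagens with cleavable ends. Col15a1 lay at 1.68 and 0.597 CPM in 2KO, 0.950 and 0.593 CPM in deltaEmu, and 6.16 and 6.70 CPM in RAG2_deficient, 5.65-fold lower in 2KO and 8.20-fold lower in deltaEmu than in RAG2_deficient (adjusted p = 0.0334 and 0.0108). The first fold rests on 2KO libraries that differ: its log2 value was -2.499 with both and -3.40 without 2KO replicate 1. Col18a1, the endostatin precursor gene, lay at 0.400 to 1.74 CPM and was not called in these comparisons.

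The beaded filament chains Col6a1, Col6a2 and Col6a3, which assemble into the microfibrils around stromal cells, shared the order deltaEmu, 2KO, RAG2_deficient. Col6a1 lay at 11.8 and 10.2 CPM in 2KO, 6.75 and 9.61 CPM in deltaEmu, and 24.2 and 18.4 CPM in RAG2_deficient. Col6a2 lay at 8.41 and 7.86 CPM in 2KO, 3.75 and 5.69 CPM in deltaEmu, and 15.0 and 13.6 CPM in RAG2_deficient. Col6a3 lay at 5.29 and 3.86 CPM in 2KO, 2.60 and 3.44 CPM in deltaEmu, and 17.6 and 14.3 CPM in RAG2_deficient. For all 3 genes each 2KO library was above each deltaEmu library and below each RAG2_deficient library. In deltaEmu they were 2.61-fold, 3.04-fold and 5.29-fold lower than in RAG2_deficient (adjusted p = 0.0147, 0.00946 and 0.00283). In 2KO, Col6a3 was 3.49-fold lower than in RAG2_deficient (adjusted p = 0.0150), and Col6a1 and Col6a2 were 1.93-fold and 1.76-fold lower without a call (adjusted p = 0.0741 and 0.116). Per kilobase, Col6a1 was 2.48 to 3.42 times Col6a2 in the femoral libraries. None of the 3 was called between 2KO and deltaEmu (adjusted p = 0.471, 0.179 and 0.360).

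Col6a5, an alternative chain of type VI, was highest in 2KO. It had 167 and 161 counts in 2KO, 1 and 6 in deltaEmu and 13 and 18 in RAG2_deficient, which are 8.26 and 7.40 CPM in 2KO, 0.04999 and 0.356 CPM in deltaEmu, and 0.808 and 0.928 CPM in RAG2_deficient. It was 39.3-fold higher in 2KO than in deltaEmu (log2 5.30 ± 0.57, adjusted p = 0.00283) and 8.93-fold higher than in RAG2_deficient (3.16 ± 0.47, adjusted p = 0.0138). The size against deltaEmu depended on a few counts, with a log2 value of 4.43 without deltaEmu replicate 5 and 7.12 without deltaEmu replicate 7. The call against RAG2_deficient was lost without 2KO replicate 3. The gene lies at chr9:105856070-105960643 on the minus strand (mm10), between Col6a6 (chr9:105687809-105828160) and Col6a4 (chr9:105989454-106096783), which share its orientation. Its neighbours lay far below its 2KO level: Col6a4 had 11 and 9 counts in 2KO against 1 and 5 in deltaEmu and 3 and 2 in RAG2_deficient, and Col6a6 had 6 and 4, 3 and 1, and 3 and 14. Col6a4, which was too low to be tested, was thus also highest in 2KO, without overlap of libraries. Farther out, Pik3r4, a kinase subunit gene, lay at 31.8 to 40.8 CPM in all 6 libraries, and neither it nor D030055H07Rik, Glyctk, Wdr82 or Ppm1m was called between femoral groups. By level per kilobase, Col6a5 stood 14th of 44 in 2KO, 39th in deltaEmu and 36th in RAG2_deficient.

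**Figure D4:**
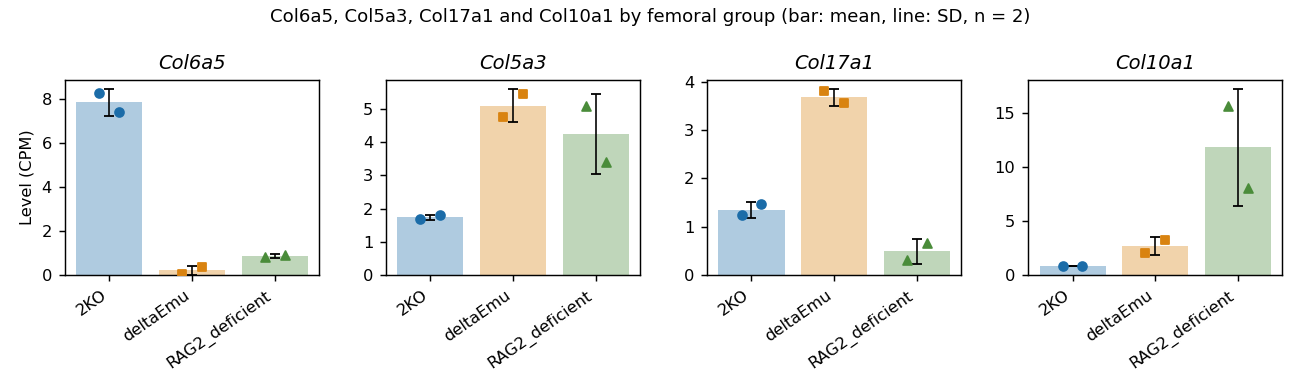
Levels in CPM of Col6a5, Col5a3, Col17a1 and Col10a1 by femoral group (points: libraries, bars: means, lines: SD, n = 2). Col6a5 is high in 2KO, Col5a3 is low in 2KO, Col17a1 is high in deltaEmu and Col10a1 is high in RAG2_deficient.

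Fibril-associated collagens lie on the surface of fibrils and link them to other matrix. Col22a1, found at tissue junctions, lay at 7.92 and 6.16 CPM in 2KO, 11.9 and 12.5 CPM in deltaEmu, and 42.0 and 40.8 CPM in RAG2_deficient, 5.88-fold lower in 2KO and 3.39-fold lower in deltaEmu than in RAG2_deficient (adjusted p = 0.000885 and 0.00181). Its 3 groups were separated, with 2KO 1.73-fold below deltaEmu and no call (adjusted p = 0.0724). Col12a1, which sits on type I fibrils, lay at 6.38 and 6.34 CPM in 2KO, 6.15 and 5.52 CPM in deltaEmu, and 25.1 and 23.9 CPM in RAG2_deficient. It was 3.84-fold and 4.19-fold lower than in RAG2_deficient (adjusted p = 0.00229 and 0.00109), and between 2KO and deltaEmu its log2 fold change was 0.12 ± 0.19. Col14a1, a relative of it, lay at 5.69 and 4.87 CPM in 2KO, 5.05 and 4.51 CPM in deltaEmu, and 13.2 and 12.6 CPM in RAG2_deficient, with folds of 2.44 and 2.70 (adjusted p = 0.0235 and 0.00875). For both genes the 2KO and deltaEmu libraries lay close together or overlapped. Col16a1, Col19a1, Col20a1, Col9a1 and Col9a3, at 0.0495 to 6.34 CPM, were not called between femoral groups, and Col9a2 was not tested. Col20a1 shares 79 exon bases with 9230112E08Rik on the same strand, so its reads may be shared.

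Among transmembrane collagens, the members differed in their order of groups. Col17a1, the hemidesmosome collagen of skin, lay at 1.24 and 1.47 CPM in 2KO, 3.80 and 3.56 CPM in deltaEmu, and 0.311 and 0.670 CPM in RAG2_deficient. It was 7.27-fold higher in deltaEmu than in RAG2_deficient (log2 2.86 ± 0.43, adjusted p = 0.00745) and 2.71-fold higher in deltaEmu than in 2KO without a call (adjusted p = 0.0997). All groups were separated, but the first log2 value was 3.54 without RAG2_deficient replicate 2, and the call was lost without deltaEmu replicate 5 and without deltaEmu replicate 7. Col13a1 lay at 1.29 and 0.965 CPM in 2KO, 3.00 and 3.38 CPM in deltaEmu, and 11.0 and 5.67 CPM in RAG2_deficient. It was 7.37-fold lower in 2KO than in RAG2_deficient (adjusted p = 0.0113) and 2.61-fold lower in deltaEmu without a call (adjusted p = 0.0575). Col25a1, mostly a collagen of neurons, lay at 0.198 and 0.184 CPM in 2KO, 0.500 and 0.830 CPM in deltaEmu, and 1.37 and 1.496 CPM in RAG2_deficient, and only the 2KO difference from RAG2_deficient was called (log2 -2.87 ± 0.51, adjusted p = 0.0267). Col23a1, at 1.103 to 2.20 CPM, was not called. Nor was Col7a1, the anchoring fibril collagen of skin, at 1.29 to 2.79 CPM. Col26a1 and Col28a1 lay at 0 to 0.356 CPM and were not tested.

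Genes that act on collagen chains were described from lists, by how many were called. Beside each count below stand the same shares of all genes: 3.05% lower and 1.26% higher in 2KO, and 5.39% lower and 4.42% higher in deltaEmu, than in RAG2_deficient, and 1.91% lower and 1.79% higher in 2KO than in deltaEmu. Among 16 tested genes of folding and modification, 3 were lower in 2KO than in RAG2_deficient (list median -0.25, with 3.05% of all genes lower). In deltaEmu, 3 were lower and 2 higher than in RAG2_deficient (-0.25, with 5.39% and 4.42% of all genes). None was called between 2KO and deltaEmu (-0.22, with 2 at an unadjusted p under 0.05). There, 14 of the 16 had a log2 fold change below 0. Groups did not overlap for 10 with 2KO lower (29.5% of all genes) and for 2 with 2KO higher (27.9%). Serpinh1, the collagen chaperone Hsp47, lay at 18.6 and 16.3 CPM in 2KO, 21.6 and 25.7 CPM in deltaEmu, and 87.1 and 66.8 CPM in RAG2_deficient. It was lower in 2KO (log2 -2.14 ± 0.20, adjusted p = 0.00185) and in deltaEmu (-1.70 ± 0.19, adjusted p = 0.00248). P4ha1, a chain of prolyl hydroxylase that all collagen needs and that other cells also use, lay at 31.9 and 28.0 CPM in 2KO, 38.2 and 31.0 CPM in deltaEmu, and 31.2 and 34.04 CPM in RAG2_deficient and was not called (adjusted p = 0.772 and 0.802). The genes higher in deltaEmu were Tmem38b, an ion channel gene of the endoplasmic reticulum (log2 0.89 ± 0.18), and Plod3, a lysyl hydroxylase (0.76 ± 0.19).

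Among 10 tested genes of procollagen processing and crosslinking, 5 were lower in 2KO (median -1.25, with 3.05% of all genes lower) and 5 in deltaEmu (-1.33, with 5.39%) than in RAG2_deficient. Lox, the lysyl oxidase that starts crosslinks, lay at 9.20 and 8.27 CPM in 2KO, 9.30 and 10.8 CPM in deltaEmu, and 37.5 and 46.9 CPM in RAG2_deficient, with log2 values of -2.27 ± 0.20 and -2.07 ± 0.20 (adjusted p = 0.00152 and 0.00124). None was called between 2KO and deltaEmu, and none had an unadjusted p under 0.05 there. Among 10 fibril partners, 5 were lower and 1 higher in 2KO than in RAG2_deficient (median -2.04, with 3.05% and 1.26% of all genes). In deltaEmu, 7 were lower than in RAG2_deficient (-1.76, with 5.39%). The small proteoglycans that coat fibrils were among them: Dcn lay at 9.70 and 8.13 CPM in 2KO, 18.7 and 18.6 CPM in deltaEmu, and 67.0 and 65.3 CPM in RAG2_deficient and Lum at 4.60 and 3.26 CPM in 2KO, 6.45 and 7.35 CPM in deltaEmu, and 32.5 and 37.2 CPM in RAG2_deficient. Dcn was also lower in 2KO than in deltaEmu (log2 -1.07 ± 0.17, adjusted p = 0.0138). Thbs1, a matrix protein that platelets also carry, was higher in 2KO than in RAG2_deficient (log2 1.21 ± 0.23, adjusted p = 0.0325) and than in deltaEmu (1.18 ± 0.23, adjusted p = 0.0338). Fn1, the most abundant gene of the list, was above RAG2_deficient in 2KO and in deltaEmu, without overlap and without a call (log2 0.57 ± 0.26 and 0.45 ± 0.26). With it, the fibril partners summed to 2084 and 1878 CPM in 2KO, 1880 and 1581 CPM in deltaEmu, and 2161 and 1944 CPM in RAG2_deficient.

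Of 13 tested basement membrane partners, 3 were lower in 2KO (median -0.85, with 3.05% of all genes lower) and 5 in deltaEmu (-1.25, with 5.39%) than in RAG2_deficient. None was called between 2KO and deltaEmu (0.26, with 2 at an unadjusted p under 0.05). There, 10 of the 13 had a log2 fold change above 0. Groups did not overlap for 5 with 2KO higher (27.9% of all genes) and for 2 with 2KO lower (29.5%). Hspg2, the proteoglycan perlecan, lay at 6.33 and 6.43 CPM in 2KO, 4.30 and 5.34 CPM in deltaEmu, and 24.1 and 24.4 CPM in RAG2_deficient, with log2 values of -1.92 ± 0.20 and -2.33 ± 0.21 (adjusted p = 0.00305 and 0.000908). Among 10 collagen receptors, 3 were lower in 2KO (3.05% of all genes) and 4 in deltaEmu (5.39%) than in RAG2_deficient. An example is Ddr2, a receptor kinase of mesenchymal cells (log2 -2.35 ± 0.31 and -2.47 ± 0.32). Itgb1, the integrin chain shared by collagen receptors of many cell types, lay at 215, 228, 275, 231, 206 and 227 CPM in that order of groups and was not called (adjusted p = 0.950 and 0.506). Among 6 collagen-degrading enzymes, 2 were lower in 2KO (3.05% of all genes) and 3 in deltaEmu (5.39%) than in RAG2_deficient. Mmp2, a gelatinase, had log2 values of -2.81 ± 0.22 and -1.82 ± 0.21 (adjusted p = 0.00100 and 0.00256). Ctsk, the collagenase of osteoclasts, was called in deltaEmu only (-1.52 ± 0.33, adjusted p = 0.0273, against -1.30 ± 0.32 and 0.0663 in 2KO), and these 2 contrasts were not tested against each other.

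Most osteoblast markers were called lower in 2KO and in deltaEmu than in RAG2_deficient. Most stromal markers also lay below RAG2_deficient in both groups, but most were called in deltaEmu and few in 2KO. None of these lists holds a collagen gene. The 8 osteoblast markers summed to 187 and 165 CPM in 2KO, 204 and 264 CPM in deltaEmu, and 980.5 and 618 CPM in RAG2_deficient, and 7 of 8 were lower in 2KO (3.05% of all genes) and 7 of 8 in deltaEmu (5.39%) than in RAG2_deficient (edgeR). Of the 8 stromal markers, 2 were called lower in 2KO (3.05% of all genes) and 7 in deltaEmu (5.39%) than in RAG2_deficient. In 2KO all 8 had a log2 fold change below 0, and 6 had an unadjusted p under 0.05 (edgeR). Of all 16538 genes, 3183 had such a p, in either direction. Groups did not overlap for 7 of the 8 in 2KO (23.2% of all genes) and for 7 in deltaEmu (26.7%), all lower than RAG2_deficient. The stromal markers summed to 278 and 275 CPM in 2KO, 185 and 206 CPM in deltaEmu, and 557 and 399 CPM in RAG2_deficient. The stromal sum was thus higher in 2KO than in deltaEmu, while the collagen sum was lower. None of either list was at 0 in a femoral library. Between 2KO and deltaEmu, 1 osteoblast marker, Ibsp, was called lower (log2 -1.08 ± 0.21, with 1.91% of all genes lower). The osteoblast median was -0.64, and groups did not overlap for 6 with 2KO lower (29.5% of all genes) and for 1 with 2KO higher (27.9%). No stromal marker was called (median 0.50), and groups did not overlap for 5 with 2KO higher and for 1 with 2KO lower. An unadjusted p under 0.05 (edgeR) was found for 5 osteoblast and 4 stromal markers, and for 2597 of all 16538 genes. The 6 chondrocyte markers summed to 1.34 and 1.79 CPM, 2.4997 and 2.85 CPM, and 7.09 and 5.42 CPM, with 1 of 6 at 0 in each 2KO library. Of 4 tested, 1 was called lower in 2KO (3.05% of all genes) and 1 in deltaEmu (5.39%) than in RAG2_deficient. Their medians were -1.90 and -1.11, and 4 and 3 of the 4 were lower without overlap of groups (23.2% and 26.7% of all genes). The 6 endothelial markers summed to 92.0 and 86.8 CPM, 103 and 98.6 CPM, and 114 and 117 CPM. Of these, 2 of 6 were called lower in 2KO (3.05% of all genes) and 1 of 6 in deltaEmu (5.39%) than in RAG2_deficient. Their medians were -1.04 and -0.87, and 5 of 6 were lower without overlap of groups in each comparison (23.2% and 26.7% of all genes). In deltaEmu, 1 was higher without overlap (25.8%). No chondrocyte or endothelial marker was called between 2KO and deltaEmu (none had an unadjusted p under 0.05).

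Of the blood lineages, erythroid markers were highest in 2KO. The 10 erythroid markers summed to 11078 and 16387 CPM in 2KO, 2572 and 2754 CPM in deltaEmu, and 6121 and 3465 CPM in RAG2_deficient. All 10 were higher in 2KO than in deltaEmu (1.79% of all genes), 4 were higher in 2KO than in RAG2_deficient (1.26%), and 1 was lower in deltaEmu than in RAG2_deficient (5.39%). The 10 neutrophil markers summed to 11404 and 9347 CPM, 18417 and 21512 CPM, and 7255 and 8205 CPM. Of these 10, 5 were higher in deltaEmu than in RAG2_deficient (4.42% of all genes) and none was called in the other comparisons, where 1 (2KO against RAG2_deficient) and 7 (2KO against deltaEmu) had an unadjusted p under 0.05. The 10 pro-B genes summed to 1129 and 691 CPM, 774 and 1183 CPM, and 2899 and 3229.9 CPM. Of these, 5 were called lower in 2KO (3.05% of all genes) and 5 in deltaEmu (5.39%) than in RAG2_deficient. All 10 were lower without overlap of groups in both comparisons (23.2% and 26.7% of all genes), with medians of -1.64 and -1.50. No pro-B gene was called between 2KO and deltaEmu (none with an unadjusted p under 0.05). Megakaryocyte markers summed to 44.7 to 77.4 CPM and osteoclast markers to 14.1 to 28.9 CPM. Removing the 10 erythroid genes before the fit left 18, 3 and 22 members called in the 3 femoral comparisons. That step changes the scaling only and does not adjust for the erythroid content of a library, so nothing about composition is read from it. The part of cell composition in the collagen differences was not tested.

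Ratios to these marker sums differed by collagen type. The fibrillar sum per osteoblast marker sum was 9.28 and 7.26 in 2KO, 11.7 and 9.61 in deltaEmu, and 8.68 and 12.4 in RAG2_deficient, so 2KO and RAG2_deficient overlapped. Per stromal marker sum it was 6.25 and 4.37, 12.9 and 12.3, and 15.3 and 19.3, in 3 separate ranges. The type IV sum per stromal marker sum was 0.0816 and 0.0930, 0.0861 and 0.0847, and 0.101 and 0.0829, and these ranges overlapped. For Col6a1 to Col6a3 it was 0.0917 and 0.0800, 0.0709 and 0.0910, and 0.102 and 0.116. These ratios are descriptions, and the marker sums rest largely on a few abundant genes.

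**Figure D5:**
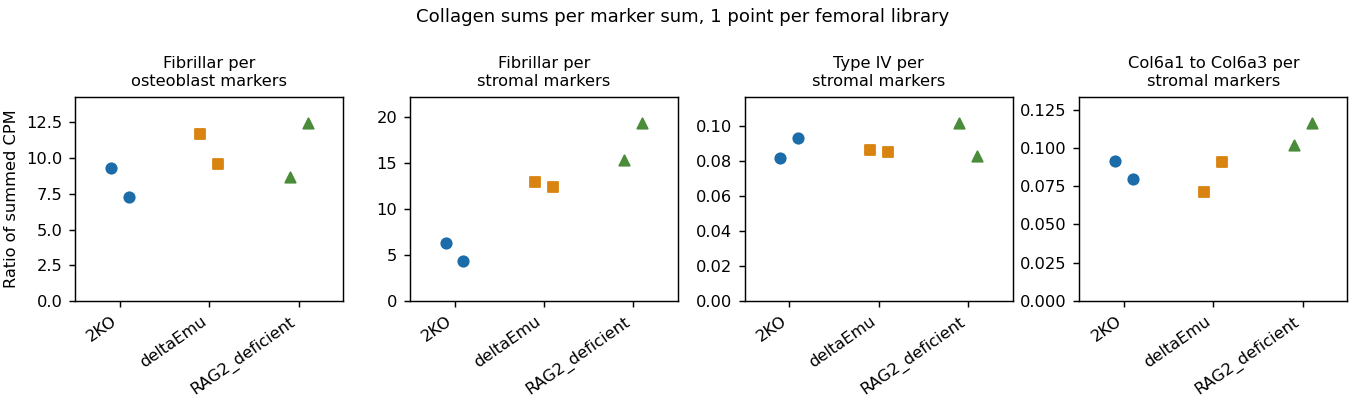
Ratios of summed CPM in the 6 femoral libraries (1 point per library): fibrillar collagens per osteoblast markers and per stromal markers, and type IV and Col6a1 to Col6a3 per stromal markers. Fibrillar per stromal rises from 4.37 and 6.25 in 2KO to 15.3 and 19.3 in RAG2_deficient, while type IV per stromal overlaps between groups.

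SAHA was given to cultured spleen cells, in which few collagens had RNA to compare. The sample names give it as 200 nM and the treatment protocol as 200 ng/ml, and titles and descriptions place it on opposite samples, so its direction rests on the descriptions used here. Only 6 members passed the splenic filter, and none of the 6 was called, nor any of 13913 genes (0% of all genes, edgeR adjusted p under 0.05, with 187 genes at an unadjusted p under 0.05, and 0 called and 317 unadjusted with DESeq2). Col11a2 was the most abundant, at 7.80 and 9.04 CPM without SAHA and 6.46 and 8.61 CPM with it (log2 -0.16 ± 0.26, adjusted p = 0.939). Col20a1 lay at 1.49 and 2.01 CPM without SAHA and 0.788 and 0.704 CPM with it and was the 1 member of the 6 with an unadjusted p under 0.05 (log2 -1.23 ± 0.42, adjusted p = 0.939). Without LPS_IL4 replicate 4_et_7, Col20a1 was called, in a fit that called 2670 of 14862 genes. Col9a3 lay at 1.69 and 2.28 CPM without SAHA and 1.66 and 1.49 CPM with it, Col7a1 at 1.08 and 2.09 CPM without SAHA and 1.14 and 1.74 CPM with it, Col27a1 at 0.719 and 0.811 CPM without SAHA and 0.788 and 0.331 CPM with it and Col23a1 at 0.565 and 0.657 CPM without SAHA and 0.512 and 0.704 CPM with it. Groups did not overlap for Col20a1 and Col9a3, 2 of the 6 and both lower with SAHA (12.6% of all genes were so, and 12.2% higher). The log2 fold changes of all 6 were below 0, from -1.23 to -0.01, as were those of 7410 of all 13913 genes. For every member of the 6 except Col20a1 the change was smaller than its SE, so no common fall was shown.

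Femoral and splenic libraries differed at once in tissue, culture, genotype (mutant mice against cells whose sample names say wt) and strain label, which cannot be told apart. Only 6 members passed the filter within the splenic libraries. The others were tested because of the femoral libraries, where they are high, which favours that direction, and nothing is read from their count. Of the 6, Col11a2, Col27a1, Col20a1 and Col23a1 were called higher in femoral libraries. Of all 37 members tested, 35 were higher in the femoral libraries and none was lower, where 40.9% of all genes were higher and 30.6% lower (edgeR, adjusted p under 0.05). Groups did not overlap for 34 members, all higher in femoral libraries (32.3% of all genes were so, and 23.2% lower). Most of these members were tested because of the femoral libraries, so neither count can be weighed against the shares of all genes. Of the 44 members, 21 had no count in any splenic library, 7 had 1 to 3 counts over the 4 libraries and 16 had more. Col11a1 and Col5a2 had no splenic count and were at least 1030-fold and 1000-fold higher in the femoral mean than the floor of 3 counts per library. Col22a1 was at least 142-fold, Col6a1 at least 95.3-fold and Col3a1 at least 73.1-fold higher. Col1a1 had 3 splenic counts in all, a ratio of 2.13e-05 to the femoral libraries with a 95% counting interval of 4.40e-06 to 6.23e-05, and Col1a2 had 1, a ratio of 6.77e-06 (1.72e-07 to 3.77e-05).

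The collagens with RNA in cultured spleen cells were of minor types. Col9a3, of the type IX collagen of cartilage, and Col7a1 were not called between tissues (log2 -0.05 ± 0.21 and 0.29 ± 0.27, adjusted p = 0.850 and 0.345), with splenic to femoral count ratios of 1.04 (0.844 to 1.27) and 0.806 (0.652 to 0.994). For Col20a1 the ratio was 0.595 (0.474 to 0.742), for Col23a1 0.405 (0.296 to 0.545) and for Col11a2 0.0830 (0.0770 to 0.0893), so Col11a2 kept 758 splenic counts while its partner chain Col11a1 had none. The call of Col20a1 was lost without 2KO replicate 3, deltaEmu replicate 5 or 7, RAG2_deficient replicate 2, LPS_IL4 replicate 4_et_7, or LPS_IL4_SAHA replicate 4_et_7 or 6_et_8. Splenic libraries had 0.270 to 0.985 CPM of the 8 stromal markers, with 4 or 5 of 8 at 0. The osteoblast list reached 57.8 to 86.4 CPM there through Alpl, alkaline phosphatase, while Ibsp, Sp7, Dmp1 and Bglap2 had no count.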

How the data were processed

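RNA was sequenced from 10 libraries in 5 groups of 2. The values deposited by the authors are raw counts, in 1 table of genes by libraries. The submitters' processing notes name STAR 2.4.0a, featureCounts, Subread 1.4.6-p1 and the build mm10/GRCm38. Not given in the sources used here are the annotation release, the strand setting and how reads with several matches were counted, so reads of overlapping genes may be shared. Columns were assigned by the index ending each description, a choice made with marker genes known. The 100 spike-in entries (0 to 17 counts per library) stayed out of library sizes and tests.

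Tests used edgeR 4.0.16 in R 4.3.3 on the counts: low genes were removed with filterByExpr at a minimum count of 10, libraries were scaled by TMM, and p-values of the quasi-likelihood F test were adjusted by Benjamini and Hochberg's method across the genes of a fit. A gene was called at an adjusted p under 0.05, and every adjusted p is from this test unless another is named. The 6 femoral libraries formed 1 fit (3 residual degrees of freedom), the 4 splenic libraries another (2), and all 10 another (5). Errors are SD for levels (n = 2) and SE for log2 fold changes. Each SE is the absolute log2 fold change divided by the square root of the F statistic, so it restates the F test. The smallest p of an exact permutation test at this size would be 0.333. Fold bounds use a floor of 3 counts per library, and 95% intervals cover counting error only. DESeq2 1.42.0, other filters and scalings, left-out libraries and the shared pool names as a block were alternatives. The splenic pool names (4_et_7 and 6_et_8) occur in both groups, and same-named pools deviated with a correlation of -0.47 over 13913 genes. The pipeline was also run on simulated data, and no error rate for these libraries is drawn from that run.

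Collagen genes, lists and alternatives were chosen with earlier results of these data known. Values by library are given for members with a mean of at least 5 CPM in a group or called without overlap of groups. From each other list, at most the 2 called genes with the smallest adjusted p per comparison are named, with Dcn, Lum, Serpinh1, P4ha1, Lox, Itgb1 and Ctsk as fixed names. Genes named beyond this (Tmem38b, Plod3, Thbs1, Fn1, Ibsp, Sp7, Dmp1, Bglap2, Ddx3y, Alpl and the neighbours of Col6a5) were chosen after their values were seen. Nt5dc1 and 9230112E08Rik are named for the exon bases they share with a member.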

Additional observations from a re-analysis of the deposited data

How the results depend on the processing

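Of 312 gene values for 2KO against deltaEmu over the alternatives, 270 kept direction and side of the threshold, as did 282 of 324 for 2KO against RAG2_deficient and 281 of 325 for deltaEmu against RAG2_deficient. The 18 members called between 2KO and RAG2_deficient became 28 with no low-count filter and 8 to 21 when single libraries were left out. The 3 members called between 2KO and deltaEmu became 8 with DESeq2, 10 with no low-count filter, 10 with only the 4 libraries compared, and 1 without ribosomal RNA, mitochondrial and immunoglobulin genes. They became 1 to 11 without single libraries, and Col6a5 was called in each of these fits. The 22 members called between deltaEmu and RAG2_deficient became 2 to 24 without single libraries. For SAHA, leaving out single libraries gave 0 to 1 calls. The replicate block on the pool names gave 0 calls among the collagen genes, and the crossed pairing, added after seeing the data, also 0. Femoral against splenic counts ranged from 29 to 39, all higher, while the median of all genes was 0.21, and 0.44 with DESeq2. Some log2 fold changes of genes not called reversed without 1 library. For 2KO against deltaEmu, leaving out single libraries gave -0.37 (without 2KO replicate 1) to 1.11 for Col15a1, -0.42 to 0.46 for Col3a1 (above 0 without 2KO replicate 3, at 0.30, and without deltaEmu replicate 7), and -0.077 (without deltaEmu replicate 5) to 0.62 for Col27a1. For deltaEmu against RAG2_deficient it gave -0.0038 (without RAG2_deficient replicate 2) to 0.59 for Col5a3. The cause of these changes was not tested. In fits that leave a group with 1 library, that library is assumed to vary like the other groups. Members under about 1 CPM rest on few counts, and differences among them were often not detectable at this depth.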
